A study of Ciona robusta with 6 samples.

Results

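Of the 16526 KH2012 gene models of *Ciona robusta*, a tunicate, 45 were uneven among the libraries of cells that misexpressed *Lhx3/4* and even among the control libraries. The members were chosen from the measured values by 4 conditions on the level in CPM, the reads of a gene as a share of all reads assigned to genes in its library, scaled to the same total in every library. The mean over the 3 *Lhx3/4* libraries was at least 2 CPM, and the highest *Lhx3/4* library was at least 4 times the lowest. The highest control library was at most 2 times the lowest, and the lowest *Lhx3/4* library was below 2 times the highest control library. A pseudocount of 0.1 CPM was added before the ratios within a group. Because these values chose the members, every level, ratio and fold change given below for a member is a description. Members were fitted along with all other genes, and their calls are given only as counts from which nothing is read.

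The samples were 6 polyA RNA libraries from neuroectoderm cells of the anterior neural plate (ANP), 3 from *Lhx3/4* embryos and 3 from control embryos, labelled as biological replicates 1 to 3 in each group. All embryos were wild type and carried *Dmrt>GFP*, in which an enhancer of *Dmrt* drives GFP in the ANP lineage, and the *Lhx3/4* embryos also carried *Dmrt>Lhx3/4*, so that the same enhancer drove the misexpressed factor. Embryos were raised at 18°C and dissociated, and GFP+ cells were collected by FACS. Transgenes entered by electroporation, which gives mosaic embryos, and nothing in the sources used here ties a library to one batch of embryos or gives the amount of transgene that the cells of a library took up.

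Lhx3/4 is a LIM homeodomain transcription factor that takes part in specifying the cardiopharyngeal lineage in *Ciona*. Some precursors of motor ganglion neurons also express it. In the ANP, FGF signaling normally activates a different program, which leads to palps, anterior sensory structures and pigment cells.

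Reads assigned to genes numbered 52637768 to 71200276 in the *Lhx3/4* libraries and 58295081 to 68937810 in the control libraries. *Lhx3/4* itself (KH.S215.4) had 681, 608 and 553 CPM in *Lhx3/4* replicates 1, 2 and 3, against 34.7, 51.3 and 29.2 CPM in control replicates 1, 2 and 3. Its highest *Lhx3/4* library was 1.23 times its lowest. This level is a mean over many sorted cells, and the part of the amount of *Lhx3/4* per cell in the unevenness of the 45 members was not tested. As markers of the labelled tissue, 4 ANP and pigment genes were taken, *Onecut*, *Six3/6*, *Tyrp-1* and the homolog of *MSX2*. Their summed level was 72.9 to 112 CPM in the *Lhx3/4* libraries and 1372 to 1826 CPM in the control libraries, and all 4 were detected in every library. The paper names *Onecut*, *Six3/6* and *Tyrp-1* among the ANP genes most lowered in these data, and *Tyrp-1* is also a member. The sum of the 4 therefore does not check the tissue of the *Lhx3/4* libraries. The 4 tail muscle and mesoderm markers summed to 16.8 to 18.2 CPM in the *Lhx3/4* libraries and 1.91 to 5.01 CPM in the control libraries, and did not move together. The homologs of *TTN* (KH.C1.1072) and *VGLL2* (KH.L165.4) had 1.58 to 6.93 CPM and 9.85 to 16.03 CPM in the *Lhx3/4* libraries, against at most 0.0172 CPM and at most 2.73 CPM in the controls. Both *TBX6* homologs (KH.S654.1 and KH.S654.2) had at most 0.19 CPM in any *Lhx3/4* library and at most 1.85 CPM in any control.

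Few genes met the rule, because most genes that were uneven among the *Lhx3/4* libraries were uneven among the controls too. Of the 16526 genes, 10868 reached a mean of 2 CPM in the *Lhx3/4* libraries, and 415 of these had a highest *Lhx3/4* library at least 4 times the lowest. In 366 of the 415 the controls also spread by more than 2 times, and in 260 they spread by 4 times or more. The controls were even in 49, of which 4 were left out by the fourth condition, since every *Lhx3/4* library stood at or above 2 times the highest control. The 8790 genes that reached the same mean and had even controls are called comparable genes below. Among comparable genes the median ratio of highest to lowest *Lhx3/4* library was 1.31, and among the 45 members the ratio ran from 4.01 to 10.9 with a median of 4.80.

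**Figure D1:**
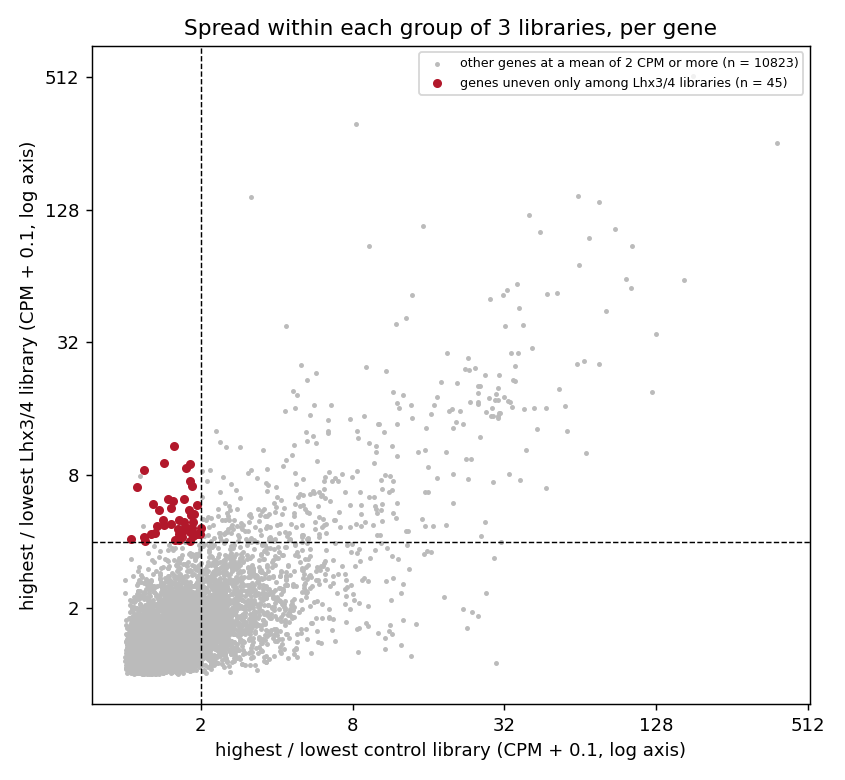
Ratio of the highest to the lowest library (CPM + 0.1) among the 3 *Lhx3/4* libraries (vertical, log axis) against the same ratio among the 3 control libraries (horizontal, log axis), 1 point per gene at a mean of at least 2 CPM in the *Lhx3/4* libraries. The 45 members (red) lie above the dashed line at 4 and left of the dashed line at 2, and the gray points above the line at 4 lie mostly to the right, where the controls are uneven as well.

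The members were mostly genes of low level. Their mean over the *Lhx3/4* libraries ran from 2.04 to 113 CPM with a median of 3.84 CPM, and over the control libraries from 0.155 to 501 CPM with a median of 4.42 CPM. A mean under 10 CPM in the *Lhx3/4* libraries was found in 40 of 45 members (88.9%), and in 14.9% of comparable genes. Of comparable genes at 2 to 5 CPM, 32 of 637 were members (5.02%), against 8 of 669 at 5 to 10 CPM (1.20%). At 10 to 100 CPM 4 of 4849 were members, and above 100 CPM 1 of 2635. The ratio of highest to lowest *Lhx3/4* library without pseudocount had a 95% exact (Clopper-Pearson) interval whose lower bound was at least 3.34 in every member. The interval was taken on the same counts that chose the member, so its bound is a description, and it covers counting error only. The part of the low level in the unevenness was not tested.

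Each *Lhx3/4* library was then placed against the 3 controls. A library was called above the controls when its CPM + 0.1 was at least 2 times that of the highest control, below when it was at most 0.5 times that of the lowest control, and level otherwise. Of the 45 members, 6 were above the controls in 2 *Lhx3/4* libraries and 3 were above in 1, while 20 were below in 1, 5 were below in 2 and 4 were below in all 3. One gene was above in 1 library and below in another, and 6 were level in all 3. Replicate 2 was below the controls in 21 members, replicate 3 in 12 and replicate 1 in 10. Replicate 2 was also above the controls most often, in 7 members, against 5 for replicate 1 and 4 for replicate 3. These counts depend on each library. With the rule applied to 2 *Lhx3/4* libraries, 16 genes met it without replicate 1, 12 without replicate 2 and 23 without replicate 3, with 4, 3 and 5 above in some library only and 12, 7 and 14 below in some library only. With 2 control libraries more genes counted as even, and the set grew to 137 without control replicate 1, 123 without control replicate 2 and 209 without control replicate 3. Of these, 46, 40 and 38 were above in some library only and 69, 68 and 152 were below.

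**Figure D2:**
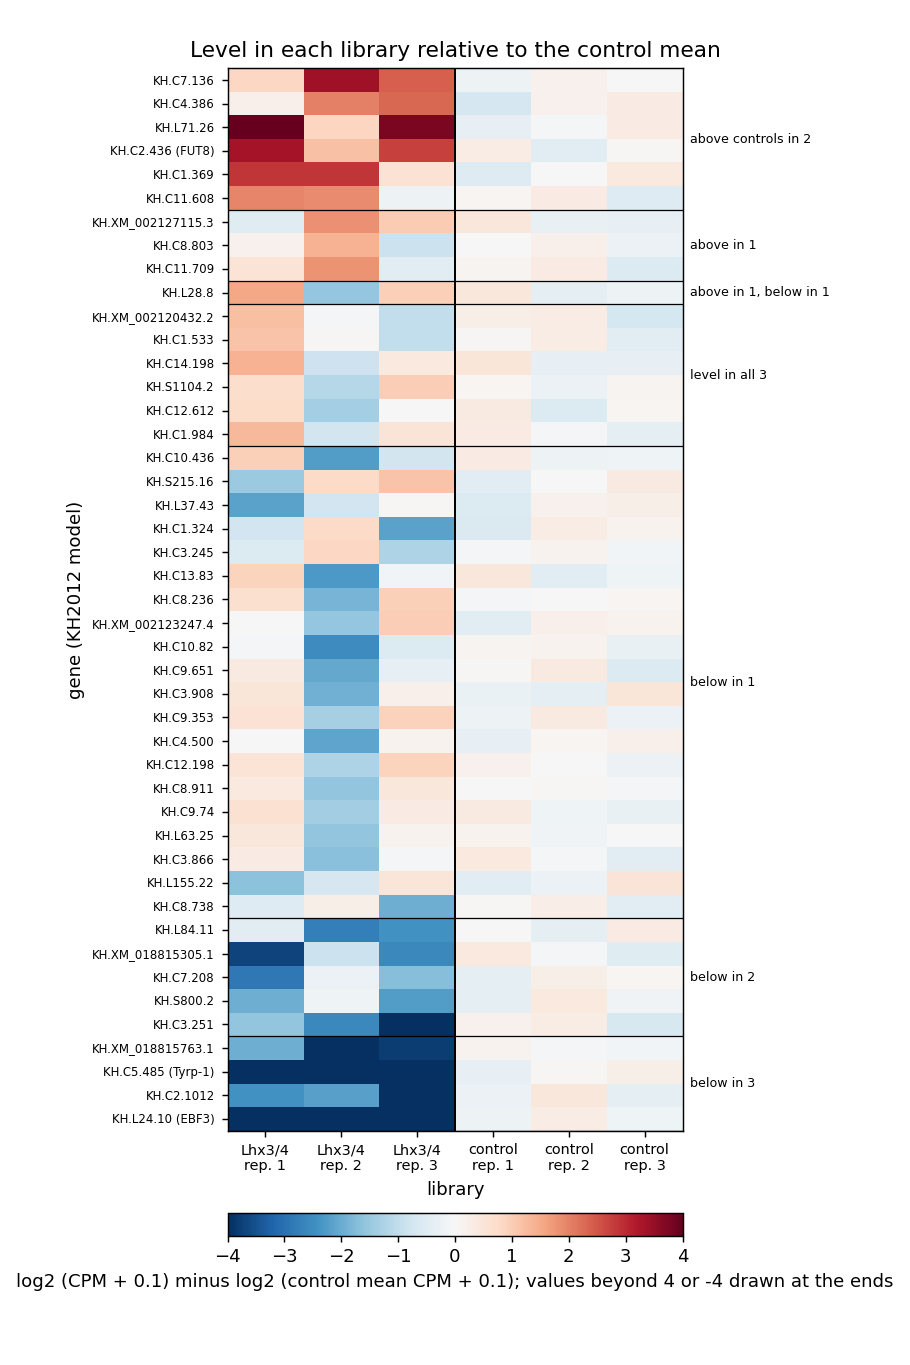
Level of each of the 45 members in the 3 *Lhx3/4* libraries (left) and the 3 control libraries (right), as log2 (CPM + 0.1) minus log2 of the control mean (CPM + 0.1), with red above and blue below the control mean. Members are grouped by the number of *Lhx3/4* libraries above or below the controls, and the column of *Lhx3/4* replicate 2 holds most of the blue cells in the group of 20 that are below in 1 library.

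Values in the following are given for replicates 1, 2 and 3 in that order. The 6 members above the controls in 2 *Lhx3/4* libraries did not share the library that stayed near the controls. *FUT8* (KH.C2.436), named for the fucosyltransferase that adds core fucose to N-glycans, had 29.0, 6.47 and 19.4 CPM in the *Lhx3/4* libraries, against 3.50, 2.04 and 2.90 CPM in the controls. All 3 *Lhx3/4* libraries were higher than all 3 controls, and replicate 2 was the one within 2 times the highest control. KH.L71.26 had 4.92, 0.362 and 3.36 CPM in the *Lhx3/4* libraries, against 0.103, 0.144 and 0.218 CPM in the controls. Its ratio of 10.9 was the largest of the 45, and the controls held only 6, 9 and 15 reads. Both genes therefore had replicate 2 as the low library.

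In KH.C1.369 and KH.C11.608 the low library was replicate 3. KH.C1.369 had 69.0, 69.4 and 14.0 CPM in the *Lhx3/4* libraries, against 6.64, 9.31 and 12.4 CPM in the controls, so that replicates 1 and 2 were nearly equal and replicate 3 was close to the highest control. KH.C11.608, on the study's list of transcription factors, had 7.92, 7.56 and 1.71 CPM in the *Lhx3/4* libraries, against 2.08, 2.51 and 1.33 CPM in the controls. Here replicate 3 lay inside the range of the controls. In KH.C7.136 and KH.C4.386 the low library was replicate 1. KH.C7.136 had 1.12, 7.15 and 3.47 CPM in the *Lhx3/4* libraries, against 0.497, 0.671 and 0.595 CPM in the controls, and its groups did not overlap. KH.C4.386 had 3.40, 12.3 and 15.0 CPM in the *Lhx3/4* libraries, against 1.82, 3.32 and 3.73 CPM in the controls, and its replicate 1 lay among the controls. Each *Lhx3/4* library was thus the low one in 2 of the 6 genes.

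Another 3 members were above the controls in replicate 2 alone. KH.C8.803, the one of higher level, had 27.6, 63.8 and 13.5 CPM in the *Lhx3/4* libraries, against 23.9, 28.2 and 20.9 CPM in the controls. Its replicate 2 was the highest of the 6 libraries and its replicate 3 the lowest, on either side of the controls. KH.C11.709 had 1.86, 4.53 and 0.899 CPM in the *Lhx3/4* libraries, against 1.34, 1.58 and 0.812 CPM in the controls. KH.XM_002127115.3 had 0.665, 3.66 and 2.05 CPM in the *Lhx3/4* libraries, against 1.37, 0.767 and 0.754 CPM in the controls. In both of these the lowest *Lhx3/4* library was within the range of the controls or just under it.

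**Figure D3:**
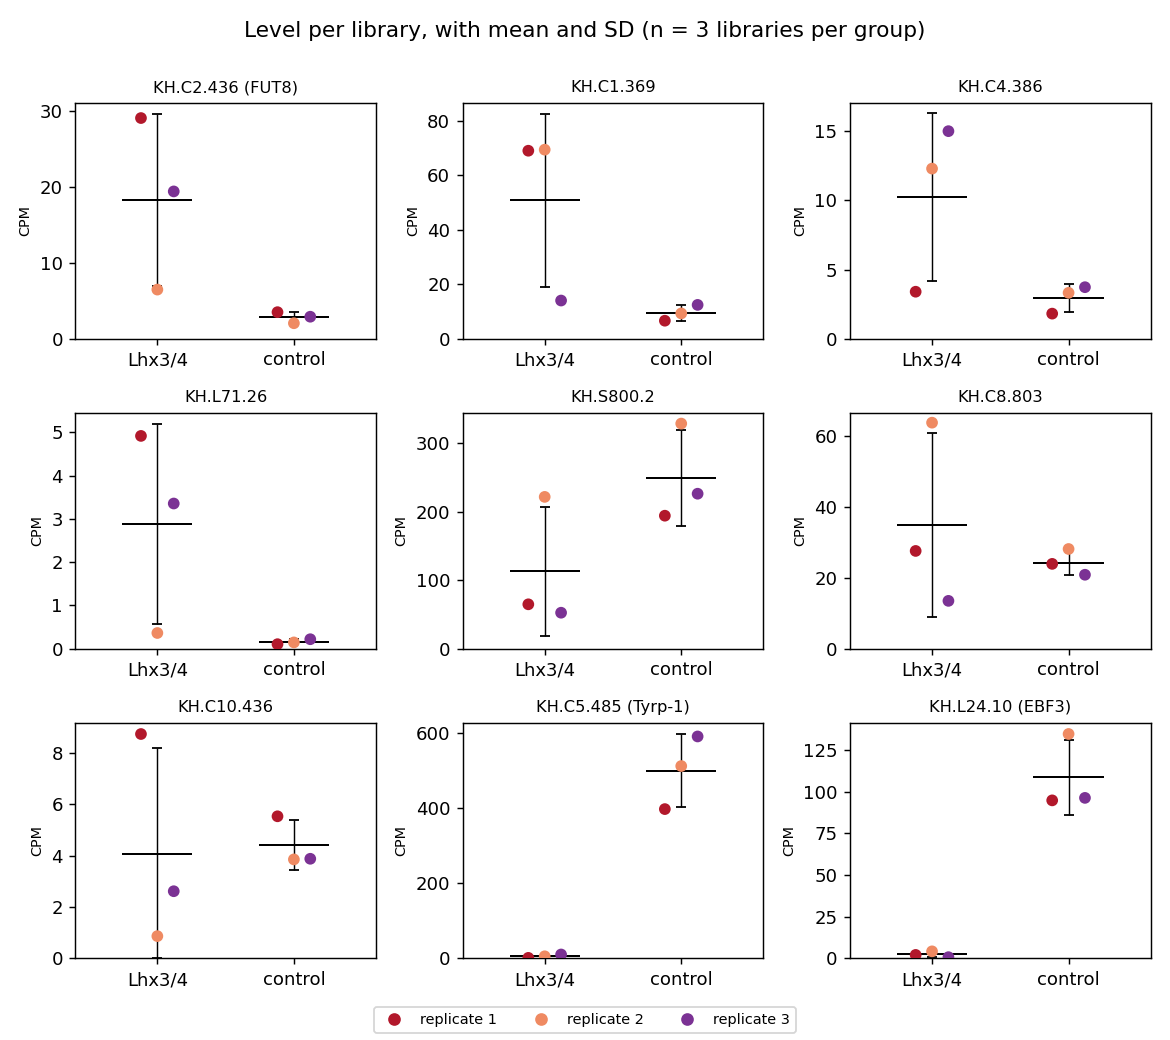
CPM per library (points, colored by replicate number) with the mean (line) and SD (bar) of 3 libraries per group, *Lhx3/4* left of control in each panel, for 9 members on linear axes from 0. The *Lhx3/4* library nearest to the controls is replicate 2 for *FUT8* and KH.L71.26, replicate 3 for KH.C1.369 and replicate 1 for KH.C4.386, while *Tyrp-1* and *EBF3* are near 0 in all 3 *Lhx3/4* libraries on the scale of the controls.

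The 4 members below the controls in all 3 *Lhx3/4* libraries differed in how far below each library was, not in direction. *Tyrp-1* (KH.C5.485), whose product belongs to the tyrosinase-related enzymes that make melanin, had 1.61, 5.77 and 10.6 CPM in the *Lhx3/4* libraries, against 398, 513 and 592 CPM in the controls. It had the highest control mean of the members, 501 ± 97.4 CPM (SD, n = 3), against 6.0 ± 4.50 CPM in the *Lhx3/4* libraries (SD, n = 3). The *Lhx3/4* libraries followed the same order as the controls of the same number, with replicate 1 lowest and replicate 3 highest in both groups. *EBF3* (KH.L24.10), named for a transcription factor of the COE family, which acts in neuronal differentiation, had 2.13, 4.27 and 0.772 CPM in the *Lhx3/4* libraries, against 94.8, 135 and 96.3 CPM in the controls. In both genes the highest *Lhx3/4* library was far below the lowest control, so the unevenness was among residual levels.

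KH.XM_018815763.1 had 5.26, 0.535 and 1.40 CPM in the *Lhx3/4* libraries, against 23.0, 19.96 and 19.3 CPM in the controls. KH.C2.1012 had 3.59, 4.28 and 0.688 CPM in the *Lhx3/4* libraries, against 16.7, 27.3 and 15.1 CPM in the controls. Replicate 1 was thus the high library in the one gene, and replicate 3 the low library in the other. Less RNA per cell and fewer cells that express a gene cannot be told apart in libraries made from many sorted cells, so these residual levels do not say whether a few cells kept the gene on.

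Of the members, 5 were below the controls in 2 *Lhx3/4* libraries and level in the other one. KH.S800.2, the member of highest level in the *Lhx3/4* libraries, had 64.6, 221 and 52.4 CPM there, against 194, 328 and 226 CPM in the controls. Its replicate 2 stood within the range of the controls, and replicate 2 was the highest of its group in both groups. KH.C7.208, on the study's list of genes that respond to the cardiopharyngeal factor Foxf, had 1.75, 11.3 and 4.03 CPM in the *Lhx3/4* libraries, against 10.1, 15.7 and 14.2 CPM in the controls, with the same library level. KH.XM_018815305.1 had 0.836, 6.57 and 1.92 CPM in the *Lhx3/4* libraries, against 15.9, 11.71 and 8.57 CPM in the controls. Replicate 2 was therefore the library that stayed nearest to the controls in all 3 of these genes.

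The other 2 genes of this kind had replicate 1 as the library nearest to the controls. KH.C3.251 had 6.69, 3.33 and 1.05 CPM in the *Lhx3/4* libraries, against 23.0, 24.9 and 12.9 CPM in the controls. KH.L84.11 had 4.33, 0.781 and 0.997 CPM in the *Lhx3/4* libraries, against 5.78, 4.39 and 7.24 CPM in the controls. In KH.L84.11 replicate 1 was under the lowest control by only a small margin.

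The largest kind, 20 members below the controls in 1 *Lhx3/4* library, was mostly a set of genes with a low replicate 2. Replicate 2 was the library below the controls in 14 of the 20, and replicates 1 and 3 in 3 each. KH.C13.83 had 4.33, 0.391 and 2.13 CPM in the *Lhx3/4* libraries, against 3.19, 1.71 and 2.05 CPM in the controls. KH.C8.236 had 2.68, 0.391 and 3.36 CPM in the *Lhx3/4* libraries, against 1.58, 1.66 and 1.77 CPM in the controls, which differed by little. In reads, KH.C13.83 had 27 in replicate 2 against 228 and 152 in replicates 1 and 3, and KH.C8.236 had 27 against 141 and 239. KH.C4.500, on the list of transcription factors, had 5.66, 1.26 and 6.33 CPM in the *Lhx3/4* libraries, against 4.56, 6.04 and 6.56 CPM in the controls. Its replicates 1 and 3 thus lay within the controls, and only replicate 2 stood apart. KH.C10.436 had 8.72, 0.868 and 2.61 CPM in the *Lhx3/4* libraries, against 5.52, 3.85 and 3.87 CPM in the controls, so that its replicate 1 was above every control and its replicate 2 below every control.

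A further 10 genes with a low replicate 2 had the same form, KH.C10.82, KH.C12.198, KH.C3.866, KH.C3.908, KH.C8.911, KH.C9.353, KH.C9.651, KH.C9.74, KH.L63.25 and KH.XM_002123247.4. They ran from 4.14 to 7.71 CPM in *Lhx3/4* replicate 1, from 0.796 to 1.84 CPM in replicate 2 and from 3.75 to 8.36 CPM in replicate 3. The same genes ran from 2.49 to 6.26 CPM in control replicate 1, from 2.51 to 7.31 CPM in control replicate 2 and from 2.39 to 5.54 CPM in control replicate 3. The range in *Lhx3/4* replicate 2 did not meet the range in any other library, and the ranges of the other 5 libraries overlapped. This separation follows in part from how the genes were chosen.

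In the remaining 6 of the 20, replicate 1 or 3 was the library below the controls. KH.C1.324 had 6.0, 17.4 and 2.22 CPM in the *Lhx3/4* libraries, against 6.84, 12.6 and 11.3 CPM in the controls. KH.C8.738, on the study's list of genes of cardiopharyngeal progenitors from single-cell data, had 5.41, 9.29 and 1.97 CPM in the *Lhx3/4* libraries, against 8.20, 9.57 and 5.83 CPM in the controls. KH.C3.245 had 2.34, 6.16 and 1.39 CPM in the *Lhx3/4* libraries, against 3.28, 3.83 and 3.21 CPM in the controls. These 3 genes had replicate 3 as the lowest library and replicate 2 as the highest of the *Lhx3/4* group. KH.S215.16 had 1.04, 5.44 and 7.06 CPM in the *Lhx3/4* libraries, against 2.30, 3.07 and 4.03 CPM in the controls. KH.L37.43 had 1.41, 3.79 and 6.76 CPM in the *Lhx3/4* libraries, against 4.43, 7.36 and 7.64 CPM in the controls. KH.L155.22 had 1.99, 3.98 and 8.93 CPM in the *Lhx3/4* libraries, against 4.70, 5.40 and 9.14 CPM in the controls. In these last 3 genes the order of the libraries, replicate 1 lowest and replicate 3 highest, was the same in both groups.

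The last 7 members were above in 1 library and below in another, or level in all 3. KH.L28.8 had 3.74, 0.347 and 2.44 CPM in the *Lhx3/4* libraries, against 1.66, 0.910 and 1.03 CPM in the controls, and was the gene with replicate 1 above the controls and replicate 2 below them. The 6 genes level in all 3 libraries spread to both sides of the controls without reaching 2 times the highest or 0.5 times the lowest. KH.C14.198 had 6.78, 1.39 and 3.34 CPM in the *Lhx3/4* libraries, against 3.59, 1.98 and 1.99 CPM in the controls. KH.S1104.2 had 2.70, 0.680 and 3.29 CPM in the *Lhx3/4* libraries, against 1.72, 1.36 and 1.76 CPM in the controls. In both of these genes replicate 2 was the low library. KH.C12.612 had 4.67, 1.03 and 2.78 CPM in the *Lhx3/4* libraries, against 3.59, 1.87 and 2.93 CPM in the controls. KH.C1.984 had 13.9, 3.33 and 8.06 CPM in the *Lhx3/4* libraries, against 7.14, 5.37 and 4.31 CPM in the controls. Replicate 2 was again the low library. KH.C1.533 had 9.56, 4.41 and 2.13 CPM in the *Lhx3/4* libraries, against 4.41, 5.27 and 3.18 CPM in the controls. KH.XM_002120432.2 had 4.84, 1.92 and 0.969 CPM in the *Lhx3/4* libraries, against 2.38, 2.51 and 1.20 CPM in the controls. Replicate 1 was the high library in both.

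Across the 45 members, the library that stood apart was most often *Lhx3/4* replicate 2. A library was called high where the gap from the highest to the middle library was the larger on the log2 scale, and otherwise the lowest library was called low. Replicate 2 was low in 20 members (44.4%), and replicates 1 and 3 were low in 6 each. Replicate 2 was high in 7 members, replicate 1 in 5 and replicate 3 in 1. Of all 8790 comparable genes, replicate 2 was the low library in 23.3%, replicate 1 in 13.2% and replicate 3 in 15.5%, and of the 116 comparable genes with a ratio of at least 3, which include the members, replicate 2 was low in 33.6%. A low replicate 2 was therefore the commonest form among comparable genes as well. The 3 sets are nested and each holds the members, so these shares cannot show whether it was more frequent at larger spread outside the members. The 13 of 45 members with 1 high library became 57 of 137 genes without control replicate 1. They became 51 of 123 without control replicate 2 and 48 of 209 without control replicate 3. Both the size of the set and the share with 1 high library thus depended on the control left out.

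**Figure D4:**
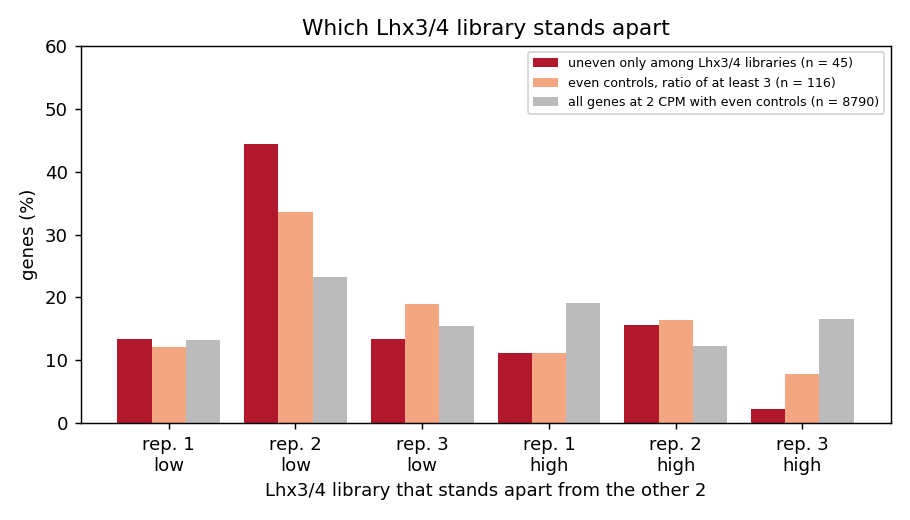
Share of genes (%) in which each *Lhx3/4* library was the low or the high one of the 3, for the 45 members (red), the 116 genes with even controls and a ratio of at least 3 (orange) and all 8790 comparable genes (gray). A low replicate 2 is the tallest bar of each set, at 44.4%, 33.6% and 23.3%.

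In the 20 genes with a low replicate 2, that library was the lowest of all 6 in 18, and replicates 1 and 3 were both level with the controls in 17. The median difference of replicate 2 from the mean of the other 2 *Lhx3/4* libraries was -2.01 on the log2 scale in these genes, against -0.06 over all comparable genes. A large negative difference follows from how these genes were chosen. Replicate 2 was the lowest *Lhx3/4* library in 42.3% of comparable genes, replicate 1 in 27.3% and replicate 3 in 30.3%. With TMM scaling 9 members no longer met the rule, and 6 of these had a low replicate 2. All 20 had a mean under 10 CPM in the *Lhx3/4* libraries apart from *FUT8*, and 18 were under 10 CPM in every library. *Lhx3/4* replicate 2 also had the most genes with no read, 1902 against 1498 and 1443 in replicates 1 and 3, and 1480, 1332 and 1724 in the controls. Its share of reads outside any gene model was the lowest of its group, 4.88% against 6.81% and 5.52% in replicates 1 and 3. The part of these library properties in the result was not tested. The summed ANP markers were 72.9, 92.9 and 112 CPM in *Lhx3/4* replicates 1, 2 and 3, and the 2 motor ganglion markers summed to 9.71, 25.4 and 10.9 CPM, against 1.49 to 3.13 CPM in the controls. *Nkx6* carried that sum, with 8.13, 24.2 and 9.21 CPM in the *Lhx3/4* libraries, while *Vsx* had 1.58, 1.20 and 1.66 CPM and was lowest in replicate 2. The *TTN* homolog was also highest in replicate 2, at 1.58, 6.93 and 2.12 CPM. The *VGLL2* homolog, on the same list of tail muscle and mesoderm markers, was lowest in replicate 2, at 14.99, 9.85 and 16.03 CPM. The 4 markers of that list summed to 16.8 CPM in replicates 1 and 2 and to 18.2 CPM in replicate 3. The part of cell composition was not tested either.

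The same rule with the groups exchanged, uneven controls and even *Lhx3/4* libraries, was met by 67 genes. There too 1 library stood apart most often. Control replicate 3 was the low library in 32 of the 67, control replicate 1 in 14 and control replicate 2 in 5. Control replicate 3 had the most genes with no read of its group, 1724. Its share of reads outside gene models was the lowest of its group, 5.55% against 9.63% and 7.69% in control replicates 1 and 2. The part of these properties was not tested, and no share with a low control replicate 3 is given outside the 67 genes. In 26 of the 45 members the control with the same number as the library that stood apart was also the extreme one of its group on the same side (57.8%), against 64.6% of comparable genes and 49.5% of those under 10 CPM. This held in 8 of the 20 members with a low *Lhx3/4* replicate 2 (40.0%). The share was 60.7% of comparable genes with a low replicate 2 and 44.5% of those under 10 CPM. It held in 6 of the 7 members with a high replicate 2. Here the share was 50.5% of comparable genes with a high replicate 2 and 45.8% of those under 10 CPM. Of these 7 members, KH.C8.803 and KH.S800.2 had means of 35.0 and 113 CPM in the *Lhx3/4* libraries, not under 10 CPM.

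The range of the *Lhx3/4* libraries overlapped that of the controls in 34 of 45 members. In 4 all *Lhx3/4* libraries were above all controls and in 7 all were below, and over the 13641 genes with at least 100 reads in total these shares were 10.9% and 10.6%. In edgeR's quasi-likelihood test, with a call where the size of the log2 ratio was at least 0.58 and the p adjusted over all tested genes was under 0.05, 1 member was called up, *FUT8*, and 2 down, *Tyrp-1* and *EBF3*, and of all tested genes 1.85% were called up and 2.92% down. Nothing is read from these counts, since the rule used the same contrast. The log2 fold changes were 2.62 (SE 0.53) for *FUT8*, -6.43 (SE 0.70) for *Tyrp-1* and -5.55 (SE 0.63) for *EBF3*. Over the members the median SE was 0.60 on the log2 scale, against 0.20 over comparable genes, as the choice of uneven genes entails. These fits did not pair the libraries by replicate number. With the replicate number as a block, 4 members were called up and 9 down, where 4.72% and 6.94% of all tested genes were. The log2 fold changes were then 2.43 (SE 0.30) for *FUT8*, -6.68 (SE 0.40) for *Tyrp-1* and -5.76 (SE 0.37) for *EBF3*. DESeq2 called 5 up and 6 down, where 3.5% and 5.47% of all tested genes were. The count of members called up was 2 without *Lhx3/4* replicate 1 or 2 and 0 without any 1 of the control libraries, and the count called down was 5 without *Lhx3/4* replicate 1 and 4 without *Lhx3/4* replicate 2.

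The members were few on each of the study's gene lists. Of the 239 listed transcription factors at a mean of at least 2 CPM in the *Lhx3/4* libraries, 3 were members, KH.C11.608, KH.C4.500 and *EBF3*, and their patterns differed, being above in 2 libraries, below in 1 and below in 3. Of the 1000 genes listed for the highest expression in control cells, 2 were members, *Tyrp-1* and KH.S800.2. Of 1384 genes listed for cardiopharyngeal progenitors in single-cell data, 4 were members, KH.C11.608, *FUT8*, KH.C8.738 and KH.S800.2, and of 23 Foxf-responsive genes 1 was, KH.C7.208. No member was on the lists for neural tube closure (0 of 32) or for cell polarity, actin and adhesion (0 of 74), and the copies of these 2 lists used here, with 58 and 99 genes, are shorter than the study's text states. Over all 10868 genes at this level 0.414% were members. By identifier, 30 members were models on KH chromosomes, spread over 13 chromosomes with at most 4 on any 1, and 10 were on unplaced scaffolds. The other 5 carried RefSeq-like identifiers, 11.1% of the members against 1.21% of comparable genes. These 5 had means of 2.12 to 4.63 CPM in the *Lhx3/4* libraries, and the share among comparable genes of that level is not given. Only 3 members had a name paired with their identifier in the sources used here, so what most of them encode is not given.

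The genes on either side of each threshold differed by little in the first 3 conditions. KH.L84.11 was a member at a mean of 2.04 CPM, and KH.S484.4 was not at 1.97 CPM. KH.C3.866 was a member at a ratio of 4.01 and KH.L63.25 at 4.03, while KH.L141.63 and KH.C6.205 were not, both at 3.99. The controls of KH.XM_002120432.2 spread by 1.999 times and those of KH.C4.386 by 1.995 times, inside the limit. Those of KH.C3.377 spread by 2.003 times and those of KH.C9.147 by 2.018 times, outside it. At the fourth condition *FUT8* was a member with a lowest *Lhx3/4* library 1.85 times its highest control, and KH.C12.517 was not at 5.26 times, with 3.36, 2.52 and 0.632 CPM in the *Lhx3/4* libraries, against 0.120, 0.0958 and 0.0870 CPM in the controls.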

How the data were processed

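The authors deposited 1 table of raw counts of reads per gene for each of 6 libraries, with HISAT2 and HTSeq named in the submitters' processing notes, the ci3 assembly as reference and KH2012 gene models. Neither tool versions nor strand handling is given in the sources used here, so overlapping genes and antisense partners may share reads. The paper and the sample labels name different library kits. The HTSeq summary lines entered neither library sizes nor tests: 12.1% to 19.5% of counts were unaligned, 4.88% to 9.63% lay in no gene model, 5.38% to 5.97% were ambiguous, 2.36% to 3.04% were of low alignment quality and 1.92% to 2.51% were not unique. A further deposited table holds the authors' DESeq2 comparison (fold changes, test statistics, p-values) and was not used.

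CPM were computed from the counts with the sum over 16526 genes as library size (52637768 to 71200276 reads), and the rule was applied with Python 3.11.15, numpy 2.4.6, pandas 2.3.3 and scipy 1.17.1. The members and the lists were chosen with earlier results of these data known. The 13641 genes with a total of at least 100 reads were tested with edgeR 4.0.16 (quasi-likelihood test, TMM, R 4.3.3, limma 3.58.1), with Benjamini-Hochberg adjustment over all of them. Alternatives were DESeq2 1.42.0, other scalings, thresholds and pseudocounts, a stricter filter, a replicate block and leaving out each library. The procedures were tested on simulated data.

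Deviations from the group means of log2 CPM, over 13641 genes, correlated at 0.549, 0.457 and 0.553 between *Lhx3/4* and control libraries of the same number and at -0.339 to -0.172 between different numbers. The numbers were therefore taken to pair the libraries, which rests on these values, since no source ties a number to a day or an electroporation. The main edgeR test and DESeq2 left this pairing out, and only the fit with the replicate block used it. Adjusted p-values weigh the difference between the groups against the spread between these libraries only.

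Named genes were members with a paired name or on the list of transcription factors, up to 4 of largest ratio in each class of sides, the 6 of highest level and those at the thresholds. The other members were named after their values were seen. No gene of the series (0), member or not, matched the RefSeq gene table by identifier, so no sequences or coordinates are given.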

Additional observations from a re-analysis of the deposited data

How the results depend on the processing

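The number of members, 45, follows the thresholds. It was 77 at a minimum mean of 1 CPM and 13 at 5 CPM, 109 at a ratio of at least 3 and 11 at 6, 14 with control ratios of at most 1.5 and 102 at 3, and 27 and 19 with pseudocounts of 0.5 and 1 CPM, of which 21 and 11 were among the 45. TMM scaling gave 38 genes, 36 of them shared, and DESeq2 size factors 37, 35 of them shared. In the same settings, genes only above the controls in 1 or 2 libraries, 9 here, were 17 and 5 with the minimum changed, 22 and 1 with the ratio changed and 2 with controls within 1.5. Genes only below in 1 to 3, 29 here, were 50 and 6, 55 and 9, 11 and 56 with controls within 1.5 and 3, and 13 and 8 with the larger pseudocounts. Genes with 1 library high, 13 here, were 25 and 5, 39 and 5, and 4 and 39. Leaving out 1 library at a time gave 12 to 209 members, 3 to 46 above, 7 to 152 below and, with a control left out, 48 to 57 with 1 library high, which cannot be defined with 2 *Lhx3/4* libraries.

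Of members, edgeR called 1 up and 2 down, and of all genes 252 up and 398 down. With at least 100 reads in each of 3 libraries, 4 members were called down, and 405 of all genes. With the replicate block, 4 members were called up and 9 down, and 644 and 947 of all genes. DESeq2 called 5 and 6 members, and 478 and 746 of all genes. Leaving out 1 library at a time gave 0 to 2 members up and 2 to 5 down, and 147 to 305 genes up and 246 to 426 down.

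With 3 libraries a group, 1 library decides whether a gene is uneven. The ratios are those of genes chosen for large ratios, and no other libraries were at hand in which to measure them again. In the members the lowest count of any library was 6 reads, and 40 of 45 had a mean under 10 CPM. The set is a list of genes whose mean over the *Lhx3/4* libraries does not stand for each library. No cause of the unevenness was tested.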

Other observations

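The 67 genes that were uneven among the control libraries and even among the *Lhx3/4* libraries spread to both sides of the *Lhx3/4* libraries. By the same definition of above and below, 12 were above them in 2 control libraries and 14 in 1, while 21 were below in 1, 3 in 2 and 5 in all 3. Another 4 were above in some control library and below in another, and 8 were level in all 3. Of the study's lists, 4 of these genes were transcription factors, 2 were among the genes of highest control expression and 9 were on the single-cell list of cardiopharyngeal progenitors.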
